A study of Mus musculus with 9 samples.

Results

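A set of 9 genes of antigen presentation and interferon regulation was followed in islets of mice with Ogt deleted in beta cells. They were chosen by symbol among 24393 counted genes, and all 9 had a row in both deposited tables and passed the filter on low counts, as did 12501 genes in all. B2m, H2-K1 and H2-D1 encode chains of MHC class I molecules. Tap1, Tap2 and Tapbp encode parts of the machinery that loads them with peptide. Nlrc5, Irf1 and Irf7 encode regulators of transcription.

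RNA was sequenced from hand-picked pancreatic islets of female mice after culture overnight. The 4 knockout (KO) libraries carried the genotype Rip-cre; Ogt f/f, in which Cre recombinase is made from an insulin promoter and deletes floxed Ogt in beta cells. Mice without Cre gave the 5 wild-type (WT) libraries, and 2 of these had the genotype Ogt f/+ (WT replicates 1 and 3) whereas 3 had the genotype Ogt f/f (WT replicates 2, 4 and 5). Run 1 held KO replicates 1 and 2 and WT replicates 1 to 3, and a later pool, numbered both as run 3 and as the 2nd run in the labels and named run 3 here, held KO replicates 3 and 4 and WT replicates 4 and 5. All KO libraries carried Cre and no WT library did, so the deletion and the transgene cannot be told apart. Alpha, endothelial and immune cells of the islet are not targets of an insulin promoter and were sequenced together with the beta cells. In such bulk samples, fewer cells of a type and less RNA per cell cannot be told apart. The sources used here give neither the strain and its MHC haplotype nor whether each library is 1 animal, so a p-value covers the spread among these libraries alone, and that spread may be technical.

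MHC class I molecules carry peptides from inside the cell to its surface, where CD8+ T cells read them. A heavy chain pairs with beta-2 microglobulin in the endoplasmic reticulum, and the peptides are cut by the proteasome and pumped in by the TAP transporter. Interferons raise many of these genes through STAT proteins, interferon regulatory factors and Nlrc5, the class I transactivator. Beta cells show more class I in islets of autoimmune diabetes, which made these genes a subject of islet biology. Ogt encodes the enzyme that attaches O-GlcNAc to nuclear and cytoplasmic proteins.

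Interferon and NF-kappaB signals are known to act through elements upstream of such genes, and 4 upstream sequences are shown because they include the heavy chains, their partner chain and the gene with the lowest p. Each is the 250 bases before the start site in RefSeq (GRCm38.p6), read 5′ to 3′ along the gene. Capitals mark the ISRE (GAAA, any 2 bases, GAAA), the GAS (TTCNNNGAA), the NF-kappaB consensus and the CCAAT box, each searched on both strands. For genes with several start sites the first one listed was taken. The stretches so taken for H2-D1 and Tapbp lie inside the annotated gene span, past its first base, and that of Irf7 does in part.
B2m, chr2:122147437-122147686, plus strand: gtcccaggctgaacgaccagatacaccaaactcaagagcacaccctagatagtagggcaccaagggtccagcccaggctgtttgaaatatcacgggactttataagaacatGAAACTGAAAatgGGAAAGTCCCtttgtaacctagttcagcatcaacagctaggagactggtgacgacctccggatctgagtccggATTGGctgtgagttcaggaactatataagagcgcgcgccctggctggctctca
H2-K1, chr17:34000348-34000597, minus strand: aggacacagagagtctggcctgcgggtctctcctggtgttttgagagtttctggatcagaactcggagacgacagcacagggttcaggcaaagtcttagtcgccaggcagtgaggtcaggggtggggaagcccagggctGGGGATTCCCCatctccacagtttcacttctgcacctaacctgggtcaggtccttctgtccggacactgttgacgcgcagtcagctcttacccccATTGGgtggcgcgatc
H2-D1, chr17:35262844-35263093, plus strand: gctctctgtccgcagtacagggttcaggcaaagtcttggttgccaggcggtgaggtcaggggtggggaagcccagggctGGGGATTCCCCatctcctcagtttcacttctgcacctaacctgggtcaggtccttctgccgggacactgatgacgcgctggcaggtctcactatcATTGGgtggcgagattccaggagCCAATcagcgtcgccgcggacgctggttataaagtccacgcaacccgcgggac
Irf1, chr11:53769764-53770013, plus strand: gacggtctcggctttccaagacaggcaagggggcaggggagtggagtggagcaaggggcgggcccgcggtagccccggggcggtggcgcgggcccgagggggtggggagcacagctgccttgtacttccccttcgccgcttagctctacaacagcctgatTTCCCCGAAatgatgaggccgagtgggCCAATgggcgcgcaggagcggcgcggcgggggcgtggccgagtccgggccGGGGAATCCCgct
RefSeq gave a window for 7 of the 9 genes, those of Tap1, Tapbp and Irf7 are not printed, and Tap2 and Nlrc5 are named only. B2m alone among the 7 held an exact match to the ISRE letters. It begins 139 bases before the start site, and 3.04% of 27025 promoters hold one. Variants were not searched, so windows without a match, those of H2-K1 and H2-D1 among them, may still hold such an element. Irf1 alone held a GAS, 90 bases before its start (7.18% of promoters). The NF-kappaB consensus stood in B2m, H2-K1, H2-D1 and Irf1 and in 7.01% of all promoters. A CCAAT box, present in 34.5% of promoters, was found in 6 of the 7 and not in Irf7. The half-site of the cAMP response element (TGACG, not in capitals, 17.9% of promoters) was found in 5, all but Tapbp and Irf1. These are matches of letters, and binding was not measured here.

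H2-K1 and H2-D1 are close relatives, and this bears on how far their counts can be read. Both lie in the MHC region of chromosome 17 (GRCm38), H2-K1 from 33996017 to 34000347 on the minus strand and H2-D1 from 35262730 to 35267499 on the plus strand. Their coding sequences were 91.5% identical over 1077 aligned bases in the GENCODE transcripts, and their windows shown above were 89.5% identical over 190 aligned bases. The longest stretch that they share without a difference has 91 bases and spans coding bases 738 to 828 of H2-K1 and 747 to 837 of H2-D1. It is shown because a read that falls inside it cannot be given to either gene.
Shared by H2-K1 and H2-D1: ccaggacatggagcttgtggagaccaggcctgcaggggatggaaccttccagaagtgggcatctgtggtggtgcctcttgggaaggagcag
Of all 50-base words in the annotated transcripts, 9.63% of those of H2-K1 and 12.8% of those of H2-D1 also occur in another gene. The share was 23.2% for Tapbp, mostly with the overlapping predicted gene Gm19412, and 11.6% for Tap2, mostly with Gm15821. It was 3.33% for Tap1, which adjoins Psmb9, 1.24% for Irf1, 0.338% for Nlrc5 and 0% for B2m and Irf7. The sources used here do not state how the authors' counting treated such reads, so values of H2-K1, H2-D1, Tapbp and Tap2 are uncertain, and the shares of words do not bound by how much.

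Total counts were 3796043 to 4462754 per library in run 1 and 5150443 to 6073537 in run 3, with 14485 to 15136 and 20069 to 21067 genes detected. The insulin gene Ins2, the defining beta cell product, had 159953 to 250237 counts in KO libraries and 139538 to 320724 in WT libraries. Ogt averaged 29.5 ± 7.34 CPM in KO islets (SD, n = 4) and 71.1 ± 11.9 CPM in WT islets (SD, n = 5), with every KO library below every WT library. Its log2 fold change was −1.30 ± 0.14 (SE, adjusted p = 2.44e-05 in edgeR's quasi-likelihood test). CPM values are counts relative to library size, scaled by the trimmed mean of M-values, and log2 fold changes are KO over WT in a model of run and genotype.

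In the authors' FPKM table, a level per length, the class I chains had the highest means of the 9. H2-K1 averaged 263 ± 9.07 in KO islets and 232 ± 31.8 in WT islets (SD, n = 4 and n = 5). H2-D1 averaged 207 ± 22.6 FPKM in KO islets and 171 ± 26.4 in WT islets. B2m averaged 163 ± 53.1 FPKM in KO islets and 187 ± 43.1 in WT islets. Over all 9 libraries the order of mean FPKM ran from H2-K1 (246) over H2-D1 (187), B2m (176), Tapbp (97.4), Irf1 (19.3), Tap2 (11.5), Irf7 (5.46) and Tap1 (4.06) to Nlrc5 (0.166). Each gene lay above the next in all 9 libraries, with 2 exceptions. H2-D1 lay above B2m in 4 libraries, and Irf7 lay above Tap1 in 6, so neither pair has a fixed order here. The rank of H2-D1 holds for the FPKM table. In the counts, which are not per length, it had 199 to 425 per library, against 474 to 813 for B2m and 947 to 1609 for Tapbp.

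**Figure D1:**
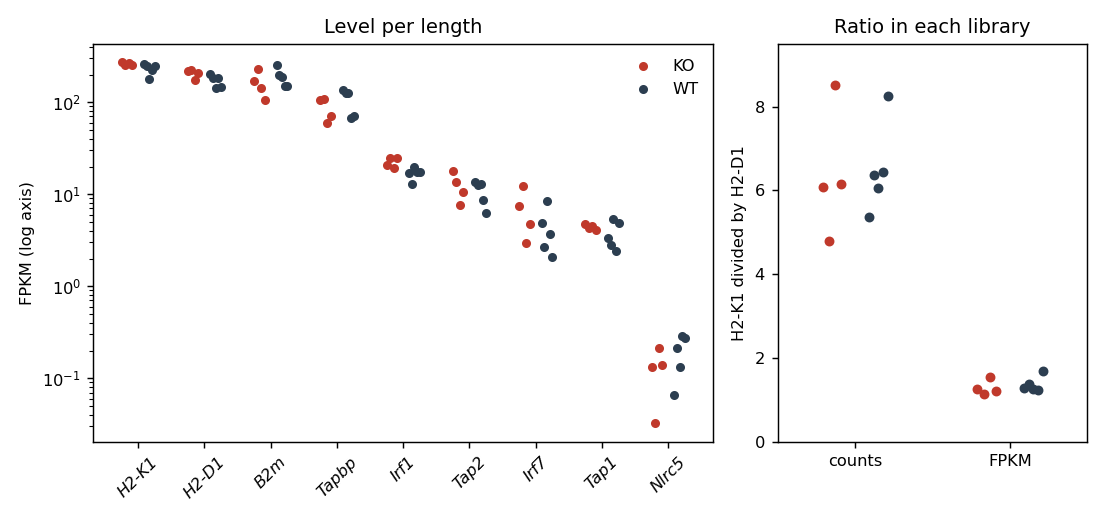
Left, FPKM of the 9 genes on a log axis, one point per library, KO in red and WT in dark blue. Right, H2-K1 divided by H2-D1 in each library, which lies between 4.80 and 8.52 in counts and between 1.14 and 1.69 in FPKM.

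The deposited tables disagree on the balance of the heavy chains. The ratio of H2-K1 to H2-D1 lay between 4.80 and 8.52 in the counts and between 1.14 and 1.69 in the FPKM values of the same libraries. The related genes H2-L, H2-Q6, H2-Q7, H2-Q8, H2-Q9, H2-T9 and H2-T22 had 0 counts in all 9 libraries but FPKM above 0. H2-L reached 32.1 to 117 FPKM in run 3 and at most 0.00134 FPKM in run 1. The level of a heavy chain relative to another therefore differs between the tables, and so does the split of reads among class I genes.

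Of the 9 genes, 1 was called over both runs at an adjusted p under 0.05, against 18.5% of all 12501 tested genes in either direction (9.56% higher in KO and 8.96% lower). That gene was Irf1, and its call was lost in most alternative fits. The estimates of the 9 genes had a median log2 fold change of 0.27, with 6 above 0 and 3 below, and the median over all tested genes was 0.017. DESeq2 called 0 of the 9. An unadjusted p under 0.05 was found for 3 of the 9 in edgeR (Tap2, Irf1 and Irf7) and for 3 in DESeq2 (Tapbp, Irf1 and Irf7).

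Of the transcription regulators, Irf1 and Irf7 had the lowest p-values of the 9 genes and Nlrc5 was far from a call. Irf1, an interferon-induced factor that acts on class I and many other genes, had 48.9 and 53.8 CPM in KO islets of run 1, against 37.1, 29.1 and 44.3 CPM in WT islets of run 1. In run 3 it had 46.7 and 49.2 CPM in KO islets, against 40.2 and 41.9 CPM in WT islets. All 4 KO libraries lay above all 5 WT libraries. Irf1 rose in KO islets with a log2 fold change of 0.35 ± 0.12 (SE; 95% interval 0.10 to 0.60; adjusted p = 0.047, edgeR's quasi-likelihood test). The estimate was 0.45 within run 1 and 0.22 within run 3, uncalled in each (edgeR adjusted p = 0.154 and 0.394). Leaving out 1 library at a time gave 0.28 to 0.41 and ended the call in 8 of 9 cases, the exception being WT replicate 3 (edgeR adjusted p = 0.0262). Of 13 other settings, limma-voom alone kept it (adjusted p = 0.0471), and adjusted p over all alternatives ran from 0.0262 to 0.415.

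Irf7, the factor that amplifies type I interferon production, was more scattered. It had 13.4 and 23.6 CPM in KO islets of run 1, against 9.04, 4.86 and 15.2 CPM in WT islets of run 1. In run 3 it had 6.81 and 9.24 CPM in KO islets, against 7.38 and 3.89 CPM in WT islets. KO and WT overlapped in each run, and KO replicate 2 was the highest library. The log2 fold change was 0.73 ± 0.30 (SE; 95% interval 0.11 to 1.36), not called (edgeR adjusted p = 0.0995). It was 0.47 without KO replicate 2. The gene was called without WT replicate 3 (0.94, edgeR adjusted p = 0.0411) and without a filter on low counts (0.72, edgeR adjusted p = 0.0132).

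Nlrc5 was at the edge of detection, with 5 and 1 counts in KO islets of run 1 and 2, 6 and 6 counts in WT islets of run 1. In run 3 it had 27 and 27 counts in KO islets, against 36 and 41 counts in WT islets. The groups overlapped in run 1, and both KO libraries lay below both WT libraries in run 3. Its log2 fold change was −0.60 ± 0.41 (SE), and the 95% interval of −1.46 to 0.26 leaves both directions possible at this depth (edgeR adjusted p = 0.336). In FPKM it lay between 0.0323 and 0.290, so the class I transactivator was the scarcest of the 9 in these islets.

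**Figure D2:**
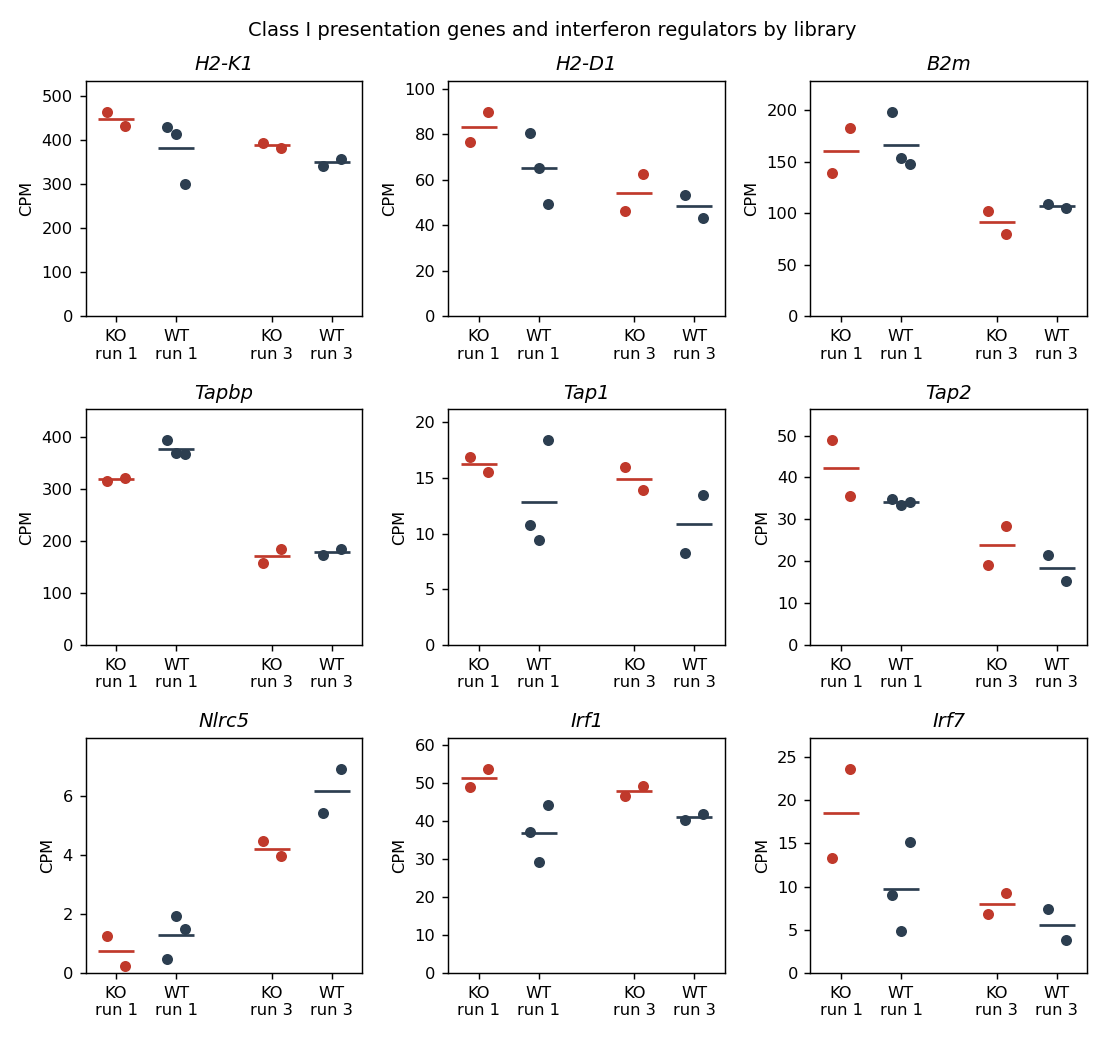
CPM of the 9 genes in each library (points) with the group mean (lines), KO in red left of WT in dark blue, for run 1 and run 3. Irf1 and H2-K1 show KO above WT without overlap in both runs, whereas B2m, Tapbp and Nlrc5 lie level or lower in KO.

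None of the class I chains was called, and their estimates differed in sign. H2-K1 had 465 and 431 CPM in KO islets of run 1, against 430.4, 415 and 299.9 CPM in WT islets of run 1. In run 3 it had 393 and 383 CPM in KO islets, against 342 and 358 CPM in WT islets. KO lay above WT in each run, by a narrow margin in run 1, where the FPKM values overlapped. The log2 fold change of 0.19 ± 0.10 (SE; 95% interval −0.01 to 0.40) was not called (edgeR adjusted p = 0.175). H2-D1 had 76.3, 89.8, 46.2 and 62.4 CPM in KO replicates 1 to 4, against 80.4, 65.1, 49.5, 53.2 and 43.4 CPM in WT replicates 1 to 5. In CPM, KO and WT overlapped in both runs. In FPKM, KO lay above WT in run 1 and overlapped with it in run 3. H2-D1 had a log2 fold change of 0.27 ± 0.14 (SE; 95% interval −0.02 to 0.56; edgeR adjusted p = 0.182). Leaving out 1 library gave 0.18 (without WT replicate 3) to 0.36 (without KO replicate 3) for H2-D1 and 0.12 (without WT replicate 3) to 0.24 (without WT replicate 1) for H2-K1. With the leukocyte marker level as a covariate the estimates were 0.020 for H2-D1 and 0.11 for H2-K1 (edgeR adjusted p = 0.969 and 0.716).

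B2m, the common partner of all heavy chains, had 139, 183, 103 and 79.8 CPM in KO replicates 1 to 4, against 199, 154, 148, 109 and 105 CPM in WT replicates 1 to 5. The groups overlapped in run 1, and KO lay below WT in run 3. The log2 fold change was −0.13 ± 0.11 (SE; 95% interval −0.37 to 0.10; edgeR adjusted p = 0.446). Leaving out 1 library gave −0.25 (without KO replicate 2) to −0.056 (without KO replicate 4). With the level of acinar markers as a covariate it was −0.34 and was called (edgeR adjusted p = 0.0345). Those markers summed to 378 to 1935 CPM in KO islets and 2248 to 5545 CPM in WT islets of run 1, and to 75.9 to 193 CPM in KO islets and 109 to 124 CPM in WT islets of run 3. Their part in the B2m value was not tested beyond this fit.

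Neither peptide transporter gene was called, and both estimates were above 0. Tap1, a subunit of the transporter, had 16.9, 15.6, 15.9 and 13.9 CPM in KO replicates 1 to 4, against 10.7, 9.39, 18.4, 8.28 and 13.5 CPM in WT replicates 1 to 5. In CPM, KO lay above WT in run 3 by a narrow margin and overlapped with it in run 1 through WT replicate 3. The FPKM values overlapped in both runs. Tap1 had a log2 fold change of 0.39 ± 0.21 (SE; edgeR adjusted p = 0.219). Tap2, the other subunit, had 48.9, 35.5, 19.1 and 28.5 CPM in KO replicates 1 to 4, against 34.9, 33.4, 34.1, 21.4 and 15.4 CPM in WT replicates 1 to 5. The lower KO library of run 1 lay just above the highest WT library, and the groups overlapped in run 3. For Tap2 the log2 fold change was 0.33 ± 0.15 (SE; edgeR adjusted p = 0.127). Leaving out 1 library gave 0.25 (without WT replicate 4) to 0.56 (without WT replicate 3) for Tap1 and 0.22 (without KO replicate 4) to 0.43 (without KO replicate 2) for Tap2. With the leukocyte marker level as a covariate the estimates were 0.65 for Tap1 and 0.14 for Tap2 (edgeR adjusted p = 0.260 and 0.776).

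Tapbp encodes tapasin, which bridges the transporter and the heavy chain. It had 315 and 321 CPM in KO islets of run 1 against 393, 368 and 366 CPM in WT islets of run 1, and 157 and 184 CPM in KO islets of run 3 against 173 and 183 CPM in WT islets of run 3. KO lay below WT in run 1 and overlapped with it in run 3, and the level differed more between the runs than between the genotypes. The log2 fold change was −0.16 ± 0.08 (SE; 95% interval −0.32 to 0.00; edgeR adjusted p = 0.166).

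**Figure D3:**
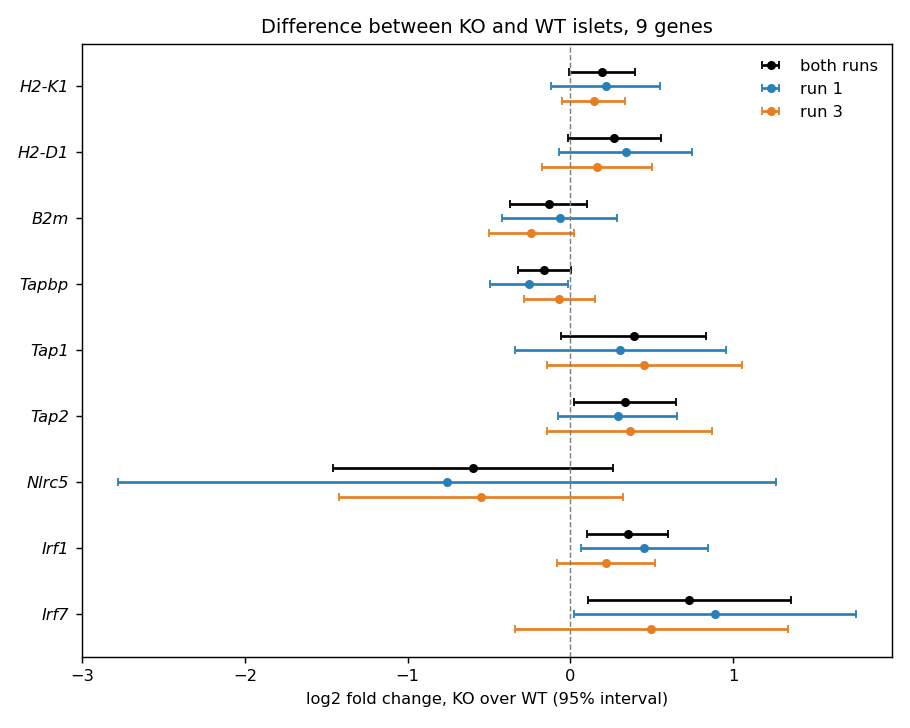
Log2 fold change of KO over WT for the 9 genes with its 95% interval, over both runs (black), within run 1 (blue) and within run 3 (orange). The intervals over both runs lie above 0 for Irf1, Irf7 and Tap2, and those of Nlrc5 are the widest.

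Within run 1, edgeR called 0 of the 9 genes, against 6.05% of all genes, and 3 had an unadjusted p under 0.05 (Tapbp, Irf1 and Irf7). Within run 3 it called 0 of the 9, against 8.17% of all genes, and 0 had an unadjusted p under 0.05. DESeq2 also called 0 of the 9 within each run. Without WT replicate 3, edgeR called Irf1 and Irf7 within run 1 (adjusted p = 0.0483 and 0.0491). The genotype difference itself was tested between the runs as an interaction, where edgeR called 0 of the 9 (0 with an unadjusted p under 0.05) and 0% of all genes. Over all genes 744 had an unadjusted interaction p under 0.05, and DESeq2 called 1. Groups without overlap in CPM were counted as well, and the FPKM values differed from these for H2-K1, H2-D1 and Tap1 as given above. In run 1, KO lay above WT for 3 of the 9 (H2-K1, Tap2 and Irf1; 21.7% of all tested genes) and below it for 1 (Tapbp; 19% of all tested genes). In run 3, KO lay above WT for 3 of the 9 (H2-K1, Tap1 and Irf1; 26.3% of all tested genes) and below it for 2 (B2m and Nlrc5; 25.5% of all tested genes). KO lay above WT without overlap in both runs for 2 of the 9 (H2-K1 and Irf1), as for 11.9% of all tested genes, and below WT in both runs for 0 of the 9, against 11% of all tested genes.

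Beyond the 9 genes, several class I-like genes were called. Of 26 class I and class I-like genes, 8 passed the filter, of which 3 rose, 1 fell and 4 were not called. Among all tested genes, 9.56% were called higher and 8.96% lower. H2-Q2, a Qa-region heavy chain, had 63.5, 50.9, 79.2 and 88.9 CPM in KO replicates 1 to 4, against 32.0, 34.3, 32.1, 43.8 and 45.6 CPM in WT replicates 1 to 5. Every KO library lay above every WT library. H2-Q2 rose with a log2 fold change of 0.86 ± 0.10 (SE; edgeR adjusted p = 3.46e-05) and was called in each run (0.79 and 0.91; edgeR adjusted p = 0.015 and 0.000298) and in all 22 alternatives. Because class I genes share sequence, a row of this family is uncertain where reads could fall to a relative.

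H2-T23, which encodes Qa-1, the ligand of the NKG2A receptor, averaged 49.0 ± 10.2 CPM in KO islets and 32.7 ± 3.06 CPM in WT islets (SD, n = 4 and n = 5). It rose by a log2 fold change of 0.56 (edgeR adjusted p = 0.00798), with 0.90 in run 1 and 0.17 in run 3. The call was lost with Ogt f/f controls alone (0.42, edgeR adjusted p = 0.0803), with the leukocyte level as a covariate (0.23, edgeR adjusted p = 0.462) and with the acinar level (0.47, edgeR adjusted p = 0.0534). Mr1, which presents vitamin B metabolites to MAIT cells, rose by 0.96 (edgeR adjusted p = 0.0177). That call was lost without KO replicate 2, KO replicate 3 or WT replicate 5 (0.87, 0.81 and 0.80), and it held in 9 of 13 other settings. Mr1 was uncalled within each run (0.66 in run 1 and 1.26 in run 3; edgeR adjusted p = 0.268 and 0.0502). Hfe, a class I-like regulator of iron uptake, averaged 27.8 ± 6.04 CPM in KO islets and 76.9 ± 24.2 CPM in WT islets (SD, n = 4 and n = 5). Hfe fell with a log2 fold change of −1.40 (edgeR adjusted p = 1.43e-05), and all 22 alternatives kept the call.

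The called genes of peptide supply and loading went both ways. Of 14 tested, 3 rose and 5 fell, 6 had no call, and the median log2 fold change was 0.11. The shares over all tested genes were 9.56% called higher and 8.96% called lower. The rises were in proteasome genes: Psmb10, an immunoproteasome subunit, rose by 0.71, Psme1, a subunit of the interferon-inducible proteasome activator, by 0.41, and Psme3, the nuclear activator, by 0.35 (edgeR adjusted p = 0.00742, 0.00348 and 0.0111). Psmb10 averaged 21.1 ± 7.41 CPM in KO islets and 12.7 ± 1.13 CPM in WT islets (SD, n = 4 and n = 5). The falls included the lectin chaperones of the endoplasmic reticulum, with log2 fold changes of −0.57 for Calr (calreticulin) and −0.39 for Canx (calnexin) (edgeR adjusted p = 0.00858 and 0.00371). The cytosolic peptidase gene Tpp2 fell too, by 0.36 (edgeR adjusted p = 0.00957). Over 13 other settings the call held in 8 for Calr, 11 for Canx and 9 for Tpp2. Psmb10 had a log2 fold change of 1.00 in run 1 and 0.36 in run 3 (edgeR adjusted p = 0.0167 and 0.448). Its call was lost with Ogt f/f controls alone (0.61, edgeR adjusted p = 0.0655), with no run term (0.72, edgeR adjusted p = 0.088) and with the leukocyte level as a covariate (0.36, edgeR adjusted p = 0.405).

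Of 14 control factors of class I genes, 0 rose, 4 fell and 10 were not called. Over all tested genes, 9.56% were called higher and 8.96% lower. The falls were in Rela, an NF-kappaB subunit (−0.33), Creb1, which binds the cAMP response element (−0.28), and Ezh2 and Suz12, subunits of the Polycomb complex that deposits repressive histone methylation (−0.61 and −0.34), with edgeR adjusted p of 0.0312, 0.0392, 0.0413 and 0.032. These calls were held in 3 of 9 leave-out fits for Rela, 3 for Creb1, 2 for Ezh2 and 5 for Suz12.

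**Figure D4:**
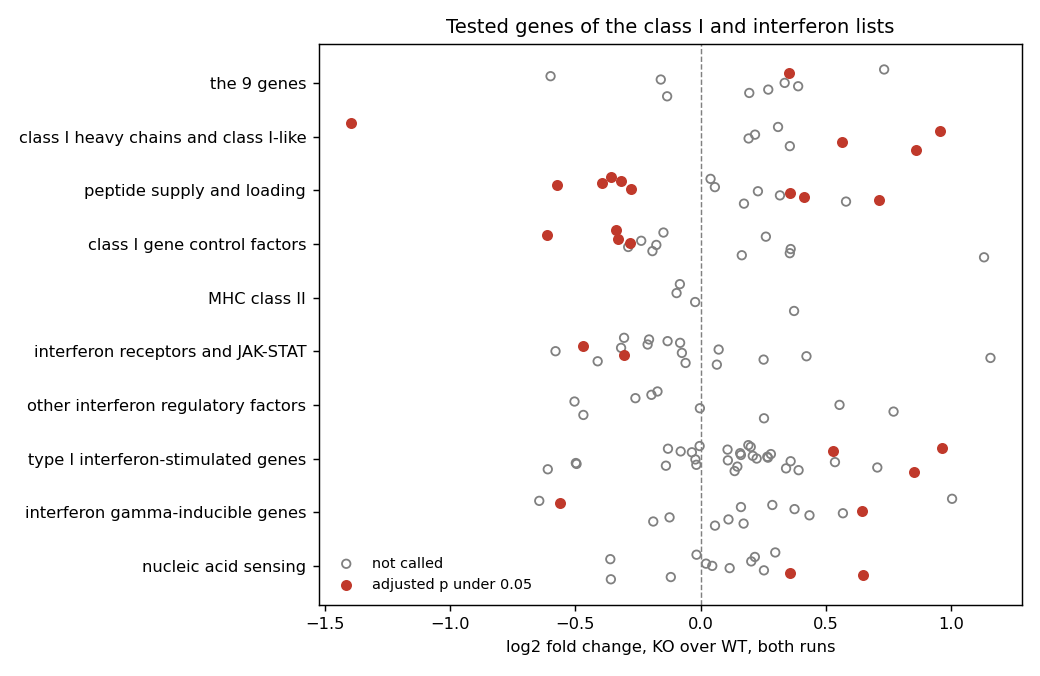
Log2 fold change of KO over WT for the tested genes of 10 lists, the 9 genes on top, with called genes in filled red and the others as open circles. The filled points lie on both sides of 0 for class I-like and peptide supply genes, and most genes of the type I interferon-stimulated list (28 of 31) are open circles.

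Calls in the interferon lists went in both directions. Of 13 interferon ligand genes 0 passed the filter, and 12 had 0 counts in all libraries of run 1. Of 17 tested receptor and JAK-STAT genes, 0 rose, 2 fell and 15 were not called. Their estimates were above 0 for 5 and below 0 for 12 over both runs and in run 1, and for 7 and 10 in run 3. Over all tested genes, 9.56% were called higher and 8.96% lower. Stat3, a factor of the IL-6 family of cytokines, fell by 0.47 and Jak1, the kinase of all interferon receptors, by 0.31 (edgeR adjusted p = 0.00168 and 0.00885). A further list held other interferon regulatory factor genes and genes of IRF2-binding proteins. Of its 9 tested genes edgeR and DESeq2 each called 0, with 4 and 3 at an unadjusted p under 0.05. The lowest p was that of Irf9, a DNA-binding factor of the type I interferon response (−0.50, edgeR adjusted p = 0.0847). Next came Irf2bp2, of an IRF2-binding protein (−0.20, edgeR adjusted p = 0.107).

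Of 31 tested type I interferon-stimulated genes, 3 rose and 0 fell, where 9.56% of all tested genes were called higher, 28 had no call, and the median log2 fold change was 0.16. Estimates were above 0 for 21 and below 0 for 10 over both runs, for 20 and 11 in run 1 and for 26 and 5 in run 3. Lgals3bp, a secreted glycoprotein, averaged 736 ± 169 CPM in KO islets and 536 ± 134 CPM in WT islets (SD, n = 4 and n = 5) and rose by 0.53 (edgeR adjusted p = 0.000298). Ube2l6, the conjugating enzyme for ISG15, rose by 0.96 and Ifit1, a sensor of viral RNA caps, by 0.85 (edgeR adjusted p = 0.00463 and 0.0269). The call of Ifit1 was lost without WT replicate 2, KO replicate 1 or KO replicate 3 (0.77, 0.62 and 0.89), and it held in 8 of 13 other settings. Ifit1 was uncalled within each run (1.02 in run 1 and 0.59 in run 3; edgeR adjusted p = 0.127 and 0.235), and its groups overlapped in run 1. In run 1, WT replicate 3 lay above WT replicates 1 and 2 in part of this list. Ifit1 had 26.4 CPM there against 8.79 and 13.3, and Ifit3 16.7 against 2.44 and 2.91. Xaf1 had 19.4 CPM against 3.18 and 4.53, and Rsad2 15.4 against 4.40 and 3.56. Herc6, at 13.7 CPM against 18.3 and 7.77, lay between them. The part of WT replicate 3 in these results was not tested beyond leaving it out. Among all tested genes, 9.56% were called higher and 8.96% lower. Of 14 tested interferon gamma-inducible genes, 1 rose, 1 fell and 12 were not called. They were Irgm1, an immunity-related GTPase (0.65), and Wars, a tryptophanyl-tRNA synthetase (−0.56), with edgeR adjusted p of 0.00331 and 0.000973. Of 13 nucleic acid sensing genes 2 rose, 0 fell and 11 were not called, against 9.56% higher and 8.96% lower over all genes. The RNA sensor Ifih1 rose by 0.65 and Ddx58 (RIG-I) by 0.36 (edgeR adjusted p = 0.00957 and 0.0313), and the call of Ddx58 held in 2 of 9 leave-out fits. Over 13 other settings the call held in 9 for Ifih1 and 5 for Ddx58.

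MHC class II genes are carried mainly by professional antigen-presenting cells. Over both runs, edgeR and DESeq2 each called 0 of the 4 tested, with 0 at an unadjusted p under 0.05. H2-Aa had a log2 fold change of 0.37 and Cd74, the invariant chain, one of −0.08 (edgeR adjusted p = 0.401 and 0.759). The Cd74 estimate was 0.23 within run 1 and −0.58 within run 3 (edgeR adjusted p = 0.375 and 0.145). In run 3, Cd74 had 13.1 and 15.8 CPM in KO islets, against 18.8 and 24.3 CPM in WT islets. Within run 3, an unadjusted p under 0.05 was found for 1 of the 4 in edgeR and 0 in DESeq2. The interaction had 1 of the 4 at an unadjusted p under 0.05 in each tool, with 0 called.

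Markers of other cells differed between the groups in part, and not alike in both runs. Of 14 tested leukocyte markers 2 rose, Cx3cr1 (1.06, edgeR adjusted p = 0.0155) and Lyz2 (0.78, edgeR adjusted p = 0.0481), and 12 were not called. For this and each other marker list, the shares over all tested genes were 9.56% called higher and 8.96% called lower. The call of Lyz2 held in 3 of 9 leave-out fits and 4 of 13 other settings, and that of Cx3cr1 in 7 of 9 and 11 of 13. The 16 markers summed to 89.6 to 101 CPM in KO islets and 84.8 to 88.4 CPM in WT islets of run 1, and to 102 to 115 CPM in KO islets and 99.7 to 101 CPM in WT islets of run 3. The median log2 fold change of the 14 tested was 0.35 in run 1, with 12 above 0 and 2 below. In run 3 it was −0.009, with 7 above 0 and 7 below. The pan-leukocyte gene Ptprc had 13 to 53 counts in KO libraries and 6 to 52 in WT libraries. Of 14 lymphocyte markers 1 passed the filter, the B cell gene Cd79a, which rose by 1.42 (edgeR adjusted p = 0.0181), and 9 had 0 counts in all libraries of run 1. Cd79a had a log2 fold change of 2.16 in run 1 and 0.68 in run 3 (edgeR adjusted p = 0.028 and 0.364), and its call was lost without KO replicate 2 (0.98) or KO replicate 3 (1.44) and in 5 of 13 other settings. The T cell gene Cd8a had 0 counts in every library of run 1. Lymphocyte markers summed to 11.1 to 24.3 CPM in KO islets and 4.40 to 5.83 CPM in WT islets of run 1, and to 18.8 to 22.3 CPM in KO islets and 13.0 to 13.5 CPM in WT islets of run 3. With the leukocyte level in the model, the log2 fold change was 0.27 for Irf1 (edgeR adjusted p = 0.415). Of the 25 genes called in the class I and interferon lists, 5 kept their call in that model (H2-Q2, Hfe, Lgals3bp, Mr1 and Stat3), and calls over all genes numbered 555 there, against 2315 without that term. With the acinar level 17 of the 25 kept their call, and with no run term 4 did. DESeq2 kept all 25, limma-voom 24, the fit with no filter on low counts 23 and that with Ogt f/f controls alone 16. The FPKM fits kept 13 to 17. The part of leukocytes, lymphocytes and acinar cells in the results was not tested beyond the fits with a marker level. Of 11 endothelial markers, 0 were called by edgeR or DESeq2, with 0 at an unadjusted p under 0.05 in either. Within runs their median log2 fold change was 0.48 in run 1 and −0.30 in run 3, where 1 was called lower by edgeR. They summed to 342 to 647 CPM in KO islets and 293 to 509 CPM in WT islets of run 1, and to 166 to 182 CPM in KO islets and 208 to 225 CPM in WT islets of run 3, the run in which B2m lay lower in KO without overlap. The interaction estimate was below 0 for all 11, with 0 called by edgeR or DESeq2 and 6 and 5 at an unadjusted p under 0.05. Their part in the B2m value was not tested. Of 6 fibroblast and pericyte markers 1 rose (Pdgfrb, 0.54). All 6 had estimates above 0 over both runs, with 4 at an unadjusted p under 0.05 in edgeR and 1 in DESeq2. Their median log2 fold change was 0.55 over both runs, 0.65 in run 1 and 0.42 in run 3, with 5 above 0 and 1 below within each run. Of 7 beta cell markers 2 fell (Iapp and Nkx6-1). The call of Nkx6-1 held in 5 of 9 leave-out fits and 6 of 13 other settings, and that of Iapp in 9 of 9 and 9 of 13. Of 10 tested acinar markers edgeR called 2 lower (Cel and Rnase1, with 8 at an unadjusted p under 0.05) and DESeq2 called 0 (1 at an unadjusted p under 0.05). The call held in 5 of 13 other settings for Cel and in 6 of 13 for Rnase1. All 10 had estimates below 0 in run 1, with a median of −1.81, and 7 of the 10 had estimates above 0 in run 3, with a median of 0.18. Of 4 alpha cell markers edgeR called 0 and DESeq2 called 1 higher, with 1 at an unadjusted p under 0.05 in each. Both tools called 1 higher within run 1 and 1 lower within run 3. The interaction estimate was below 0 for all 4. It was called for 0 by either tool, with 3 (edgeR) and 2 (DESeq2) at an unadjusted p under 0.05.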

How the data were processed

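Read counts by gene symbol and FPKM values were deposited as 2 tables, with 1 column per library. The counts are whole numbers with differing totals and were taken as raw. FastQC, Bowtie2 2.2.4.0, Cuffdiff 2.2.1, edgeR and the build mm10 are named, per the submitters' processing notes, without a role. The library kit keeps strand, per the labels' protocols. The sources used here do not state the counting tool, its use of strand or its treatment of reads with several matches, so antisense and overlapping genes are uncertain.

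Genes were tested with edgeR 4.0.16 (quasi-likelihood test, TMM scaling, default filter by genotype group, R 4.3.3) in a model of run and genotype, within each run, and for their interaction, with Benjamini-Hochberg adjustment over 12501 genes. The threshold was an adjusted p of 0.05. DESeq2 1.42.0, limma-voom (limma 3.58.1) and limma on log2(FPKM + 0.1) or log2(FPKM + 1) were alternatives, as were other scalings and filters, Ogt f/f controls alone, marker covariates and leaving out each library. The FPKM filter was at least 0.5 in at least 4 libraries. Of the counted symbols, 27 had turned into dates and were left out. Replicates of a group within a run gave a chi-square per degree of freedom of 3.73 to 36.4, so no pair agreed within sampling noise. The depth of 3796043 to 6073537 counts limits precision for genes of a few CPM.

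Members and lists were chosen with earlier results of these data known. Named are the 9 genes, Ogt, and from each list the called genes, up to 6 with the lowest p, or 2 where none was called, with up to 3 called per marker list. Ins2, Ptprc and Cd8a are given as defining markers. Ifit3, Xaf1, Rsad2 and Herc6 are given for WT replicate 3 and were chosen after their values were seen. The RefSeq and GENCODE sequences are reference sequences, not those of the mice.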

Additional observations from a re-analysis of the deposited data

How the results depend on the processing

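Over both runs 2315 genes were called. The count was 672 with no run term, 1538 with Ogt f/f controls alone, 555 with the leukocyte level and 1431 with the acinar level as a covariate, and 1274 on FPKM with no filter. Within run 1 it was 756 and became 1294 in 1 fit over all libraries. Within run 3 it was 1021 and became 540 in 1 fit over all libraries and 643 with DESeq2. The interaction gave 0 calls, 90 with no filter on low counts and 1 with DESeq2. Leaving out 1 library at a time gave 1595 to 2334 calls over both runs, 163 to 1208 within run 1, 393 to 849 within run 3 and 0 to 6 for the interaction. Of the 9 genes, 0 to 2 were called over 22 alternatives of the comparison over both runs. Leaving out 1 library turned the direction of 4 uncalled log2 fold changes. That of Cd74 over both runs ran from −0.24 to 0.038 and was above 0 without WT replicate 5 or KO replicate 3. That of B2m within run 1 ran from −0.28 to 0.12 and was above 0 without WT replicate 1 (0.078) or KO replicate 1. That of H2-D1 within run 3 ran from −0.072 to 0.36 and was below 0 without KO replicate 4. That of Tapbp within run 3 ran from −0.18 to 0.041 and was above 0 without KO replicate 3. The cause was not tested in any of these. Nlrc5 could not be tested in 2 of the leave-out fits and 2 of the FPKM fits, where it was under the filter. Where 1 library was left in an arm, it was assumed to vary like the others. No paired analysis was possible because the labels give no replicate numbers or pairing.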

Other observations

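The 5 genes whose pattern over the 9 libraries was most like the mean of the 9 genes, after each run was centred, were Cib1, Nsf, Fam149a, Cfap43 and Hdgfrp3, among 10955 candidates. Pearson's r lay between 0.951 and 0.974, over 9 libraries that share their genotype difference. This is a description of likeness to that mean, chosen after the values were seen. The 9 genes did not share 1 pattern. Between pairs of them r ran from −0.737 (H2-D1 and Nlrc5) to 0.894 (Irf1 and Irf7).

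Interferon transcripts themselves were rare. Ifng had 1 and 9 counts in KO islets of run 3 and 1 and 1 in WT islets of run 3. Ifnb1 had 2 and 4 counts in KO islets of run 3 and 0 and 0 in WT islets of run 3, and both genes had 0 counts in run 1. The summed CPM of the 13 ligand genes was 1.99 to 4.84 in KO islets and 2.03 to 3.46 in WT islets of run 3. The genes were chosen after their values were seen.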
